A study of Canis lupus familiaris with 20 samples.

Results

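The genes described here are the 60 of 24579 dog genes that led in cells of the osteosarcoma line OS-1 over the cells of 3 other lines, OSCA-8, OSCA-78 and OS-2. They were chosen from cell libraries alone. A gene had to reach 10 CPM (a gene's counts scaled to a common library total) in both OS-1 cell libraries, which 8183 genes did. Its score was the lower of those values over the highest value in the other 6 cell libraries plus 0.5 CPM, and the 60 highest scores were kept. The question was whether exosomes of OS-1 carry these transcripts above exosomes of other lines, as tracers of RNA from their own cells would.

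RNA was sequenced from cells of dog osteosarcoma lines and from exosomes of their culture supernatants. There were 8 cell libraries, 2 per line, and 12 exosome libraries, 4 of OS-1 and 2 of each other line, among them OSCA-32. OSCA-32 had no cell library, so the score says nothing of its cells. The labels name no treatment, passage or culture for any group, and each group is 1 cell line, so p-values measure the spread between libraries of these lines, which may be technical. Totals ran from 7728553 to 13301840 counts in cells and from 259078 to 481487 in exosomes. The files do not pair the Ensembl identifiers with names, and 0 of 24579 matched the gene table used, so the cells were not checked against marker genes and members are given by rank or identifier, without a function or sequence.

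Exosomes are small membrane vesicles that cells release, and they enclose RNA from the cell that made them along with protein and lipid. Osteosarcoma, a bone tumour common in large dogs, sheds them like other tumours do. A transcript made in one line and silent in others would mark vesicle RNA as coming from that line. Exosomes here were precipitated with ExoQuick, a reagent that can also bring down material outside vesicles.

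OS-1 cells had no private transcripts by this measure. The highest score was 1.65, at rank 1, and the score was 1.25 at rank 10, 1.17 at rank 30 and 1.11 at rank 60. Just inside the limit, ranks 56 to 60 scored between 1.12 and 1.11, and just outside it, ranks 61 to 65 scored 1.11 each when rounded, so the boundary falls within a continuum. All 60 members reached at least 10 CPM in some other cell library, the lowest such value being 14.3 CPM. Of the 8183 genes, 0 stayed under 5 CPM in all 6 other cell libraries. The label of private transcripts therefore does not describe these genes, which are called OS-1-leading below.

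The same score taken for the other lines showed wider margins. Scores over 1 were reached by 179 of 8183 genes in OS-1, 329 of 8766 in OSCA-8, 800 of 8831 in OSCA-78 and 1640 of 8540 in OS-2. Scores over 2 were reached by 0, 7, 32 and 319 genes. At rank 60 the score was 1.32 in OSCA-8, 1.72 in OSCA-78 and 6.15 in OS-2. These scores describe the choice of genes and carry no test.

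**Figure D1:**
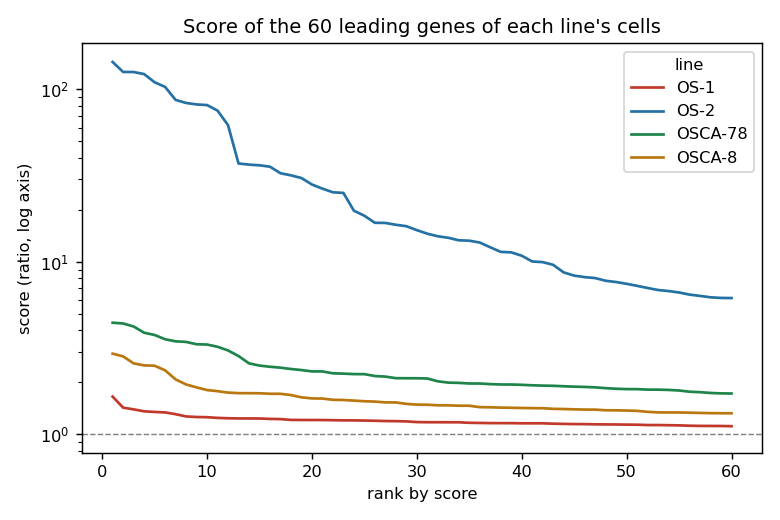
Score (ratio, log axis) against rank for the 60 leading genes of the cells of each of 4 lines, 1 curve per line, with a dashed line at 1. The OS-1 curve starts at 1.65 and ends at 1.11, below the curves of OSCA-8, OSCA-78 and OS-2.

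Among themselves the OS-1-leading genes spanned a wide range of abundance. The lower of their OS-1 cell values ran from 16.9 to 530 CPM, with a median of 97.1 CPM. By line means, OS-1 cells stood 1.60-fold (median over members, range 1.34 to 12.2) above the mean of the other 3 lines. It exceeded 2-fold for 14 members and 4-fold for 2. Members were lowest in OS-2 cells in 36 cases, in OSCA-78 cells in 15 and in OSCA-8 cells in 9. The highest other library was OSCA-8 for 35 members, OSCA-78 for 15 and OS-2 for 10. The line nearest to OS-1 in these genes was thus most often OSCA-8.

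The OS-1 cell replicates also differed from each other in these genes. The higher replicate exceeded the lower by a median of 1.11-fold over members, against 1.40-fold over the 8183 genes. The score takes the lower replicate, so it favours genes on which the replicates are close. Even so, the replicates of 20 members differed by a larger factor than the member's own score. Replicate B was the higher one for 49 of 60 members, against 43.4% of the 8183 genes.

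The member at rank 1 had the widest margin. It stood at 24.6 and 49.3 CPM in OS-1 cells, at 14.4 and 6.42 in OSCA-8 cells, at 12.3 and 12.05 in OSCA-78 cells and at 5.35 and 1.18 in OS-2 cells. Both OS-1 values lie above all 6 others, as the choice requires. The member at rank 2 stood at 322 and 2260 CPM in OS-1 cells, at 7.66 and 0.157 in OS-2 cells, at 148 and 88.1 in OSCA-78 cells and at 226 and 164 in OSCA-8 cells. Replicate B alone held the high value of that member, which made up 22.0% of all member counts of that library.

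**Figure D2:**
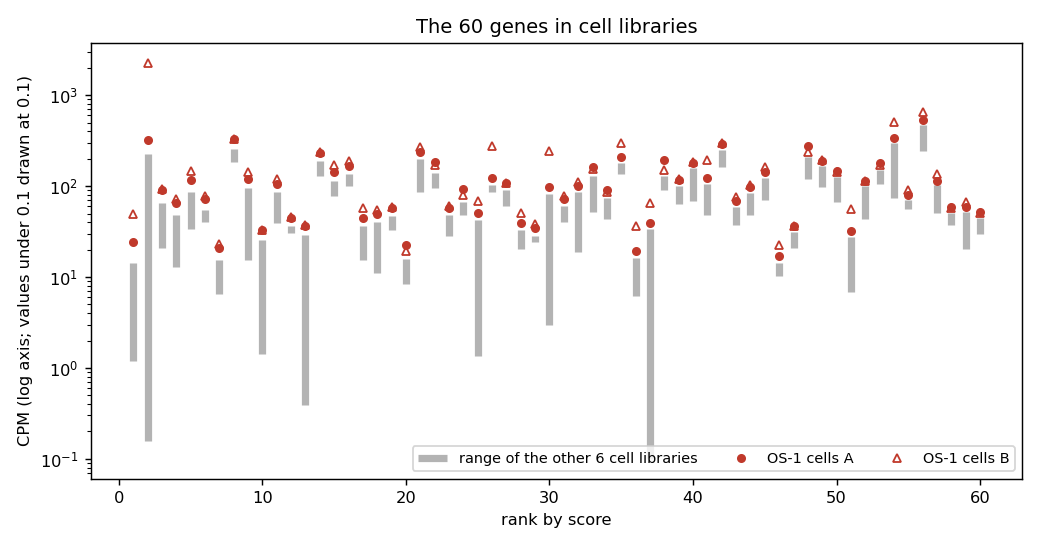
CPM (log axis) of the 60 OS-1-leading genes by rank in cell libraries, with filled circles for OS-1 replicate A, open triangles for OS-1 replicate B and grey bars for the range of the other 6 libraries. Most bars end just under the OS-1 points, and rank 2 is the one with 2260 CPM in replicate B.

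Exosome libraries did not enter the choice, and the members were well covered there. All 60 had at least 1 count in each of the 4 OS-1 libraries, which at the depth of the smallest library still gave 59.4 to 60 members. In the other exosome libraries 58 to 60 members had a count, while 67.4% to 86.6% of all genes had one in exosome libraries. The presence of a member in exosomes thus told the lines apart hardly at all. Pooled over 1533283 counts of OS-1 exosomes, a member had between 6 and 378 counts, with a median of 79.5.

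The exosome libraries of OS-1 fell into 2 pairs. Replicates 1 and 2 differed by a chi-square of 2.39 per degree of freedom and replicates 3 and 4 by 2.11, whereas pairs across them gave 7.44 to 8.90. OSCA-78 replicates 2 and 3 differed by 8.91. This chi-square is a sum over genes, the most abundant ones included. A set of 7 genes above 1% of some exosome library, none of them a member, took 18.4% and 13.7% of the counts in OS-1 replicates 1 and 2 and 1.59% and 0.75% in replicates 3 and 4. They took 27.4% and 18.7% in OSCA-8, 20.8% and 1.49% in OSCA-78, 1.90% and 0.807% in OSCA-32, and 55.6% and 60.9% in OS-2. Shares of all other genes move with these, so member shares are given with and without them.

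Summed over the 60 members, OS-1 exosomes held 0.331%, 0.341%, 0.389% and 0.391% of the counts in replicates 1 to 4. The Clopper-Pearson 95% intervals, which cover counting error only, were 0.309% to 0.354%, 0.322% to 0.361%, 0.372% to 0.407% and 0.373% to 0.410%. The share was 0.391% and 0.383% in OSCA-32, 0.336% and 0.368% in OSCA-8, 0.269% and 0.324% in OSCA-78, and 0.183% and 0.168% in OS-2. OS-1 overlapped OSCA-8 and OSCA-32, and its lowest value lay just above the higher OSCA-78 value, while both OS-2 values lay below all others.

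By mean, the order was OSCA-32 at 0.387 ± 0.00582% (SD, n = 2), OS-1 at 0.363 ± 0.0315% (n = 4), OSCA-8 at 0.352 ± 0.0230% (n = 2), OSCA-78 at 0.296 ± 0.0388% (n = 2) and OS-2 at 0.175 ± 0.0110% (n = 2). OS-1 spanned the values of OSCA-8 and reached those of OSCA-32, while both OSCA-32 libraries lay above both OSCA-8 libraries. In cells the shares were 0.876 ± 0.212% in OS-1, 0.521 ± 0.0116% in OSCA-8, 0.466 ± 0.0202% in OSCA-78 and 0.393 ± 0.0598% in OS-2 (n = 2 each). The OS-1 mean was thus 1.90 times the mean of the 3 lines in cells, by construction, and 1.32 times in exosomes. Without the member at rank 2 these ratios were 1.66 and 1.33.

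Without the 7 abundant genes the order of exosomes changed. OS-1 then held 0.398 ± 0.00543% (n = 4), below OSCA-8 at 0.458 ± 0.00681% and OS-2 at 0.421 ± 0.0114% and above OSCA-32 at 0.392 ± 0.00898% and OSCA-78 at 0.334 ± 0.00755% (n = 2 each). The 4 OS-1 libraries stood between 0.394% and 0.406%, under both OSCA-8 libraries and both OS-2 libraries. The ratio of OS-1 to the mean of the 3 lines was 0.984 by this measure. The ratio of 1.32 in all counts thus moved with the share that the 7 genes took, which was highest in OS-2.

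**Figure D3:**
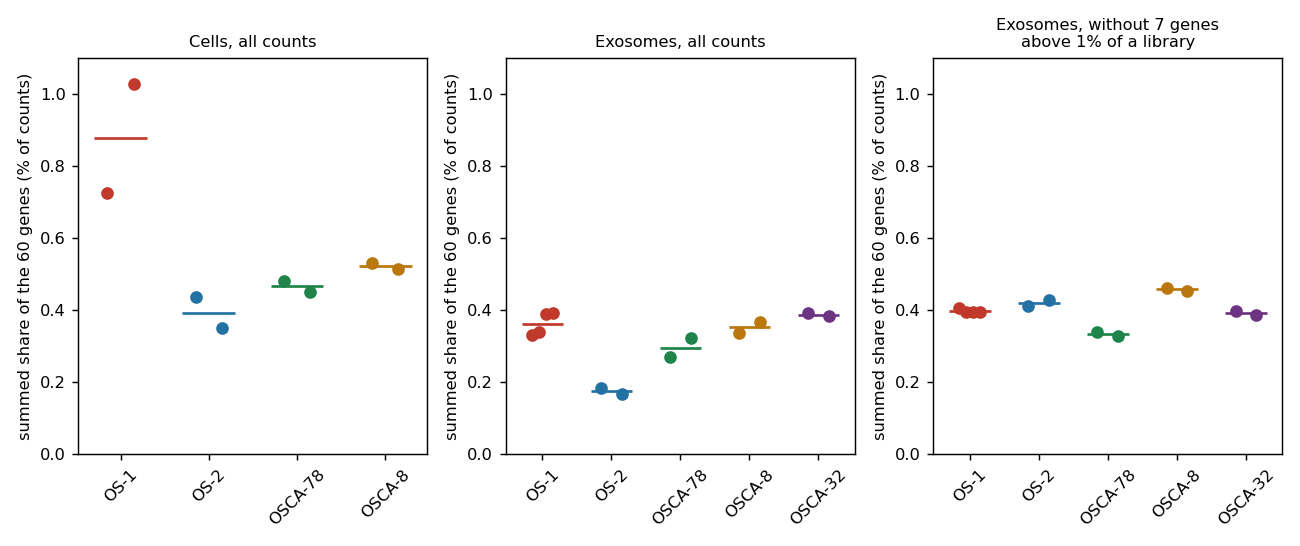
Summed share of the 60 OS-1-leading genes in percent of counts, by line, in cells (left), in exosomes (middle) and in exosomes without 7 genes above 1% of a library (right). Points are libraries and bars are line means. OS-1 is highest in cells at 0.876%, shares the upper range with OSCA-32 and OSCA-8 in exosomes and lies below OSCA-8 and OS-2 in the right panel.

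Set beside their own cells, OS-1 exosomes held fewer counts of these genes than the cell share would give. The expected numbers were 2208, 3027, 4076 and 3755 and the observed numbers 858, 1211, 1862 and 1724 in replicates 1 to 4. The 8183 genes together fell as well. They held 95.5% and 96.9% of the counts in OS-1 cells, and 61.4%, 59.8%, 53.9% and 54.0% in OS-1 exosomes. The expected numbers include the member at rank 2, which was high in cell replicate B alone. The ratio of exosome to cell CPM, both pooled, had a median of 0.516 over members and was under 1 for 43 of 60. It had a median of 0.812 over the 8183 genes and was under 1 for 58.1% of them. Members were chosen for high cell values, so this ratio carries no test. It ranged from 0.0201 for the member at rank 2 to 3.58 for that at rank 20. Over members the same median was 0.477 in OS-2, 0.721 in OSCA-78 and 0.690 in OSCA-8. The preparation of exosomes and the fraction cannot be told apart here.

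Gene by gene, 0 of 57 tested OS-1-leading genes passed as higher in OS-1 exosomes. Exosomes of OS-1 were compared with the mean of the exosomes of the 3 lines in one edgeR quasi-likelihood fit of 12 libraries with TMM scaling, which sets libraries level on genes that change little. Of 15083 genes tested, 160 were higher, or 1.06%, and 412 were lower, or 2.73%, at a Benjamini-Hochberg adjusted p under 0.05. Among members, 57 of 60 passed the filter on low counts, and 0 were higher and 2 lower. At an unadjusted p under 0.05, 2 were higher and 9 lower, against 10.5% and 9.26% of all genes tested. DESeq2 called 0 members higher and 2 lower, against 0.404% and 2.63% of all genes, and limma voom 0 and 3, against 0.292% and 3.67%. Of the 7479 tested genes that reach 10 CPM in OS-1 cells, edgeR called 0.495% higher and 5.35% lower at the adjusted threshold. At the unadjusted one, 374 of these 7479 were higher and 1303, or 17.4%, were lower. The 2 higher members are 3.51% of those tested, and the 9 lower members are 15.8%.

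The 3 members that missed the filter, ranks 3, 19 and 28, stood at no more than 22.8, 22.1 and 21.8 CPM in any exosome library. Without the filter all 60 were tested and again 0 were higher and 2 lower, against 1.69% and 2.09% of all genes. Members had a median of 0.02 for the log2 fold change of the fit, against 0.13 over all genes tested and -0.12 over the 7479 tested genes with 10 CPM or more in OS-1 cells. It was above 0 for 30 of 57 members, 59.3% of all genes tested and 41.7% of those 7479. With OS-1 replicates 1 and 2 alone the member median was -0.06, and with replicates 3 and 4 alone it was -0.01. With total counts in place of TMM it was 0.67, and 17 members were higher and 0 lower, against 38.0% and 1.31% of all genes. Of the 7479 genes, 28.2% were higher and 2.53% lower. The median of all genes then moved from 0.13 to 0.81, and members stood 0.13 below it, against 0.11 below it with TMM. The median of the 7479 genes moved from -0.12 to 0.56. Members stood 0.11 above that one with total counts and 0.14 above it with TMM.

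The SE of the fitted log2 fold change had a median of 0.33. The OS-1 advantage in cells over the same 3 lines, computed from TMM-scaled line means, had a median of 0.73 on the log2 scale over tested members. It is the log of OS-1 over the mean of the 3 lines, while the fitted difference averages the 3 lines on the log scale. They are therefore not quite the same measure. The 95% interval of the exosome difference lay wholly below the member's cell value for 35 of 57, held it for 22 and lay above it for 0. It held 0 for 47, and both 0 and the cell value for 21, for which these libraries give no decision. With total counts in both fractions, the interval lay below the cell value for 11, held it for 44 and lay above it for 2. Against each line alone with TMM, it lay below the cell value for 33 members in OS-2, 27 in OSCA-8 and 12 in OSCA-78. It held that value for 24, 30 and 45 members. Error in the cell values is not part of these intervals. The cell values were those that chose the members and so lean high.

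**Figure D4:**
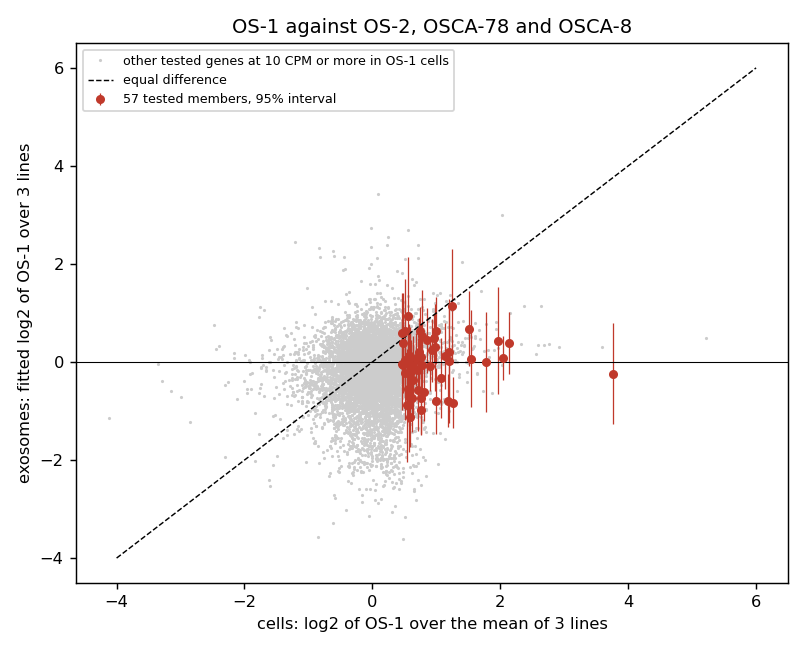
Log2 difference of OS-1 from the 3 other lines with cells, in exosomes (vertical, fitted) against that in cells (horizontal, from TMM-scaled CPM). The fitted value averages the 3 lines on the log scale, and the cell value takes the log of OS-1 over their mean. Red points are the 57 tested members with 95% intervals, grey points are other tested genes with 10 CPM or more in OS-1 cells, and the dashed line marks equal differences. Members lie right of 0 by construction and scatter around 0 vertically, with a median of 0.02.

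A larger margin in cells did not go with a clear margin in exosomes. Of the 15 tested members with a cell log2 difference over 1, 10 had a fitted exosome value above 0, with a median of 0.07 and a range of -0.83 to 1.13. Among the other 42, 20 were above 0, with a median of -0.02. Across the 57 members, Spearman's rho of both differences was 0.14. Across the 7479 genes it was 0.11. Against each line alone, rho over the members was 0.29 for OS-2, -0.04 for OSCA-78 and -0.0036 for OSCA-8. All of these are descriptions, since genes share libraries. Genes with a score over 1 had a median exosome difference of -0.07 (164 tested), those from 0.75 to 1 had -0.13 (1240), those from 0.5 to 0.75 had -0.09 (2884) and those up to 0.5 had -0.14 (3191).

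By TMM-scaled CPM, the 2 members that were lower in OS-1 exosomes stood highest in OS-2 exosomes. The TMM factors of the OS-2 libraries, 0.441 and 0.386, raise their values. ENSCAFG00000000115, at rank 8, stood at 327 and 331 CPM in OS-1 cells and between 183 and 258 CPM in the other 6. In exosomes its TMM-scaled CPM was 71.5, 60.2, 27.2 and 30.9 in OS-1 replicates 1 to 4. It was 68.4 and 80.4 in OSCA-8, 47.8 and 28.0 in OSCA-78, 283 and 337 in OS-2, and 32.2 and 41.7 in OSCA-32. On this scale both OS-2 values stood far above the rest, and OS-1 overlapped OSCA-78 and OSCA-8. In CPM the values were 125 and 130 in OS-2, 81.1, 70.4, 35.5 and 40.8 in OS-1, and 66.5 and 87.6 in OSCA-8. The log2 fold change from the fit was -1.12 (SE 0.30, edgeR adjusted p = 0.0309). Without the OS-2 line it was -0.24, with an edgeR adjusted p of 0.918.

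ENSCAFG00000009336, at rank 56 the most abundant member by its lower OS-1 cell value, stood at 530 and 662 CPM in OS-1 cells and between 243 and 474 CPM in the other 6. Its TMM-scaled CPM in exosomes was 81.7, 101, 62.5 and 80.8 in OS-1, 155 and 194 in OSCA-8, 44.99 and 52.3 in OSCA-78, 325 and 532 in OS-2, and 51.1 and 60.6 in OSCA-32. OS-1 lay below OS-2 and OSCA-8 and above OSCA-78. In CPM the values were 143 and 205 in OS-2 and 151 and 211 in OSCA-8, so OSCA-8 was then highest by mean. Against the 3 lines the fit gave -0.98 on the log2 scale (SE 0.24, edgeR adjusted p = 0.0190). Without the OS-2 line it was -0.22, with an edgeR adjusted p of 0.886. Both calls were also lost when any 1 of OS-1 replicate 3 or 4, OS-2 replicate 2 or OSCA-8 replicate 2 was left out. The fitted values then stayed between -1.07 and -0.90 for the former (edgeR adjusted p from 0.0796 to 0.167) and between -0.97 and -0.84 for the latter (0.0647 to 0.124). ENSCAFG00000000115 was lost too without OS-2 replicate 1, OSCA-78 replicate 2 or OSCA-8 replicate 1, at -1.16, -0.97 and -1.14. With OSCA-32 in the reference both were lost, at -0.76 and -0.59. With total counts the fitted values were -0.45 (adjusted p = 0.222) and -0.31 (adjusted p = 0.320).

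With 0 members called higher, 2 are shown for their high counts in OS-1 exosomes. ENSCAFG00000007613, at rank 15, stood at 142 and 172 CPM in OS-1 cells and between 77.7 and 115 CPM in the other 6. Its TMM-scaled CPM in exosomes was 116, 137, 242 and 234 in OS-1, 129 and 118 in OSCA-8, 90.0 and 131 in OSCA-78, 108 and 103 in OS-2, and 205 and 212 in OSCA-32. OS-1 replicates 3 and 4 were higher than the other 3 lines and near OSCA-32, while replicates 1 and 2 lay near the others. On the log2 scale the fit put it at 0.64 (SE 0.24, edgeR adjusted p = 0.115). It passed without OS-1 replicate 1 (0.78, adjusted p = 0.0493), with replicates 3 and 4 alone (0.98, adjusted p = 0.00228), after thinning to the smallest library (0.90, adjusted p = 0.0370) and with total counts (1.34, adjusted p = 0.00152). These pairs of replicates differed across all genes too, as given above, and the part of that difference in this value was not tested.

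ENSCAFG00000018173, at rank 30, had widely spread cell values. It stood at 97.3 and 247 CPM in OS-1 cells, at 82.5 and 73.0 in OSCA-8, at 28.97 and 52.4 in OSCA-78 and at 24.8 and 2.99 in OS-2. Its TMM-scaled CPM in exosomes was 116, 161, 123 and 143 in OS-1, 118 and 121 in OSCA-8, 143 and 200 in OSCA-78, 75.4 and 109 in OS-2, and 138 and 114 in OSCA-32. OS-1 overlapped OSCA-78, OSCA-8 and OSCA-32. The fit put its log2 difference at 0.08 (SE 0.22, edgeR adjusted p = 0.871, 95% interval -0.37 to 0.54), against 2.05 in cells. The sign turned without the OS-2 line, at -0.10, and with total counts it passed, at 0.76 (edgeR adjusted p = 0.0184).

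**Figure D5:**
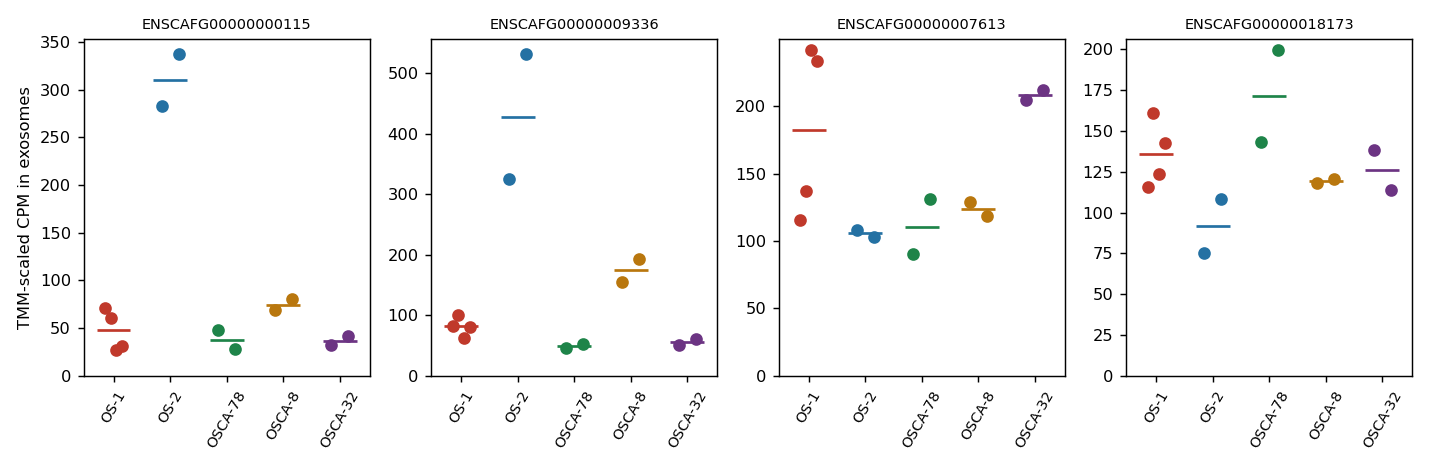
TMM-scaled CPM in exosome libraries of 5 lines for 4 members, 1 panel each, with points for libraries and bars for line means. The first 2 panels show both OS-2 libraries far above OS-1, the ENSCAFG00000007613 panel shows OS-1 replicates 3 and 4 (242 and 234) near OSCA-32, and the ENSCAFG00000018173 panel shows OS-1 overlapping other lines.

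The members at ranks 1 and 2 did not pass with TMM scaling either. In exosomes the member at rank 1 stood at 69.5, 61.9, 58.5 and 104 CPM in OS-1, 28.1 and 52.0 in OSCA-8, 49.7 and 95.6 in OSCA-78, 14.5 and 15.4 in OS-2, and 53.7 and 51.9 in OSCA-32. Against the 3 lines its fitted difference was 0.39 (SE 0.31, edgeR adjusted p = 0.503), and with total counts it passed, at 1.06 (adjusted p = 0.0136). The member at rank 2 stood at 19.3, 28.2, 18.8 and 24.96 CPM in OS-1, 69.0 and 16.4 in OSCA-8, 28.0 and 22.1 in OSCA-78, 6.23 and 2.21 in OS-2, and 36.6 and 34.6 in OSCA-32. At -0.24 (SE 0.51, edgeR adjusted p = 0.838, 95% interval -1.27 to 0.80) its fitted value and interval lay under its cell value of 3.76. That cell value rests on replicate B, and it was 1.56 with replicate A alone, still above the interval.

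Against each line alone, from the same fit, the members went different ways. The OS-1 libraries are shared by these comparisons. Against OS-2, 1 member was higher and 11 lower (edgeR adjusted p under 0.05), where 5.52% and 11.9% of all genes were called. Of the 7479 tested genes with 10 CPM or more in OS-1 cells, 2.54% were higher and 22.9% lower. The fitted value was above 0 for 30 of 57 members, against 59.8% of all genes and 38.3% of those 7479. With total counts it was 37 higher and 2 lower, against 68.6% and 3.42% of all genes and 55.7% and 6.63% of those 7479. This direction thus rests on the scaling. The 1 higher member, at rank 10 and named here after its values were seen, stood at 38.6, 47.9, 37.6 and 36.3 CPM in OS-1 exosomes and at 2.08 and 0.0 in OS-2. It stood at 12.4 and 39.2 in OSCA-78, 35.8 and 62.9 in OSCA-8 and 63.4 and 64.2 in OSCA-32. In cells it was at 33.0 and 33.1 CPM in OS-1 and at 2.50 and 1.42 in OS-2, so it was scarce in OS-2 in both fractions. Against OS-2 it passed with an edgeR adjusted p of 0.0143, on 61 pooled counts in OS-1 against 1 in OS-2. That is a CPM ratio of 37.2, with an exact 95% counting interval of 6.43 to 1493. Against the 3 lines its fitted log2 difference was 1.13 (SE 0.58, adjusted p = 0.190), or 1.72 with total counts (adjusted p = 0.00749).

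Against OSCA-78, edgeR called 0 members in either direction, and 0.0265% of all genes were higher and 0.0% lower. At an unadjusted p under 0.05, 6 members were higher and 1 lower, against 2.88% and 2.75% of all genes. The fitted value was above 0 for 44 of 57 members, against 50.3% of all genes and 48.7% of the 7479 genes above. The member median was 0.28 beside 0.75 in cells. Against OSCA-8 edgeR called 0 members, and 0.00663% of all genes were higher and 0.0597% lower. At an unadjusted p under 0.05, 0 members were higher and 7 lower, against 5.48% and 5.14% of all genes. Of the 7479 genes, 4.06% were higher and 8.56% lower. The fitted value was above 0 for 22 of 57, against 52.7% of all genes and 44.9% of the 7479. The member median was -0.11 beside 0.63 in cells.

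Against OSCA-32, whose cells were not sequenced, edgeR called 0 of 57 members and 0 of 15083 genes in either direction (0.0%). At an unadjusted p under 0.05, 4 members were higher and 3 lower, against 5.24% and 2.48% of all genes. DESeq2 and limma voom called 0 members and 0.0% of genes. With OS-1 replicates 1 and 2 only, 3 members were higher and 1 lower, against 4.29% and 3.01% of all genes. The fitted value was above 0 for 27 members, against 50.8% of all genes.

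By TMM-scaled line means in exosomes, OS-1 was the highest of the 5 lines for 8 of 57 members, OS-2 for 21, OSCA-8 for 13, OSCA-32 for 12 and OSCA-78 for 3. Over all genes tested these shares were 11.9%, 24.8%, 17.3%, 28.5% and 17.5%. Over the 7479 tested genes with 10 CPM or more in OS-1 cells they were 7.30%, 42.8%, 14.9%, 21.8% and 13.2%. By CPM among the 4 lines with cells, OS-1 was highest for 26 members, OSCA-8 for 20, OSCA-78 for 9 and OS-2 for 2. These shares were 40.1%, 16.7%, 36.6% and 6.64% of all genes and 34.3%, 19.3%, 33.7% and 12.8% of the 7479. All 4 OS-1 libraries exceeded all 6 libraries of the 3 lines in TMM-scaled CPM for 0 members, against 0.869% of all genes, and lay below them for 0, against 0.656%. In CPM they did so for 1 member, at rank 43 and named after its values were seen, against 2.36% of all genes, and lay below for 0, against 0.152%.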

How the data were processed

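The data are whole-number read counts per Ensembl dog gene, deposited by the authors in 1 table. ExoQuick was used to enrich exosomes, the SeraMir kit to extract RNA and the SMARTer Stranded Pico kit for libraries, per the labels' protocols. Tools named in the submitters' processing notes are kallisto 0.43.0, Trimmomatic 0.33.0 and FastQC 0.11.5. The deposited counts carry subread in their name. The sources used here do not otherwise say which tool made them or with which strand setting, so near-identical or overlapping genes are uncertain. There was 1 column that matched no sample label, and it was not used.

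Members were taken by the score from CPM on column totals. The members and lists were chosen with earlier results of these data known. Tests used edgeR 4.0.16 (limma 3.58.1, R 4.3.3) quasi-likelihood F tests with TMM, filterByExpr (minimum count 10), robust dispersions and a mean per line over 12 exosome libraries, adjusted by Benjamini-Hochberg over all genes tested. SEs and intervals are Wald values with the quasi-likelihood dispersion. Cell differences used TMM-scaled line means with 0.5 added. The fit was run on simulated counts in which all lines shared a common profile, apart from 200 genes changed in OS-1 by 2-fold or more. That says nothing of smaller differences, or of lines that differ in the share of the abundant genes. Named members were the 2 with the largest fitted change among those called in each direction, filled by the highest OS-1 exosome counts with a fitted value above 0 where fewer were called. Ranks 1 and 2 were added for their place. Alternatives were other scalings, filters, thinning, DESeq2 1.42.0, limma voom, the replicate block, other member rules and leaving out each library.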

Additional observations from a re-analysis of the deposited data

Results flagged for a closer look

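In the summed share of the 60 genes without the 7 genes above 1% of a library, OS-1 exosome replicate 1 stood apart at 0.406%, while replicates 2 to 4 lay at 0.394% to 0.396%. The limit used marks about 1 in 20 groups of 4 by chance.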

How the results depend on the processing

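In OS-1 exosomes against the 3 lines, the count of members higher was 0 under 24 of 28 alternatives. It was 17 with total counts, 1 with libraries thinned to the smallest total and 1 with OS-1 replicates 3 and 4 only, the last chosen after seeing the data, and 0 to 1 without single libraries. Over all genes, 38.0% were higher with total counts, 0.883% after thinning and 6.81% with replicates 3 and 4 only. Without OS-1 replicate 1, where 1 member was higher, 2.12% of all genes were. The count lower was 2. It was 0 with total counts, 0 with OSCA-32 in the reference, 1 after thinning, 1 with the replicate block, 1 with 30 members and 5 with 120 members. Chosen after seeing the data, it was 0 with OS-1 replicates 1 and 2 only, 6 with replicates 3 and 4 only and 0 without the OS-2 line, and it was 0 to 3 without single libraries. Calls over all genes moved too: 0.386% were lower with replicates 1 and 2 only, 7.55% with replicates 3 and 4 only and 0.0% without the OS-2 line. The lower share was 1.31% with total counts, 0.232% with OSCA-32 in the reference and 2.51% after thinning. Against OSCA-32, 3 members were higher and 1 lower with the replicate block (5.85% and 4.59% of all genes, against 0.0%), and 3 and 1 with OS-1 replicates 1 and 2 only (4.29% and 3.01%). The member median was 0.67 with total counts and -0.077 to 0.045 without single libraries. The ratio of summed shares, 1.32, was 1.17 with 120 members, 0.984 without the 7 abundant genes and 1.28 to 1.37 without single libraries. The cause of these changes was not tested, apart from the fewer genes or samples that some settings leave. Signs turned for ENSCAFG00000018173 (-0.028 thinned, -0.10 without the OS-2 line, -0.017 to 0.19 without single libraries), for the member at rank 2 (0.44 with total counts, -0.47 to 0.28 without single libraries) and for that at rank 10 (-0.0049 without the OS-2 line).

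The exosome numbers in the titles were not taken to pair libraries, since deviations of same-numbered libraries correlated at -0.05 to 0.32. The highest values were 0.32 for replicate 2 and 0.28 for replicate 3, both between OS-1 and OSCA-78, and the next was 0.05. What these lines share there was not tested. Under the replicate block the members lower went from 2 to 1 (2.82% of all genes), with ENSCAFG00000000115 at -0.79 (edgeR adjusted p = 0.113), and not every library correlated best with its own number. Depth limits the exosome values, since 3 counts make 6.23 to 11.6 CPM there.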
